A study of Rattus norvegicus with 4 samples.

Results

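The miRNAs described are the main arms of the miR-17-92 cluster and of its paralogous clusters, miR-106b-25 and miR-106a-363, in the small RNA of serum exosomes (Exos) of rats. Members were taken by name: 10 main arms were looked up, and 7 of them were among the 243 miRNAs listed in the deposited values. These 7 were rno-miR-17-5p, rno-miR-19b-3p, rno-miR-20a-5p, rno-miR-25-3p, rno-miR-92a-3p, rno-miR-93-5p and rno-miR-363-3p (rno marks the rat), and miR-18a-5p, miR-19a-3p and miR-106b-5p had no row and were not analysed here. The data were 4 small RNA libraries, 2 with the treatment label Exercise (rats trained on a treadmill for several weeks) and 2 with the label Sedentary (untrained rats), and the study names its animals as male SD rats. The design text names 20 rats in each group and does not say how many stand behind a library, so p-values measure only the spread between libraries, which may be technical. The titles are E-1 and E-2 for the Sedentary label and N-1 and N-2 for the Exercise label, so the groups may have been exchanged in the labels. All directions below follow the treatment labels and would change sign if the titles were right.

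A miRNA cluster is a run of hairpins cut from 1 primary transcript, each of which can give a 5p and a 3p mature arm. The arm loaded into Argonaute finds its targets mainly through the seed, bases 2 to 8, so miRNAs with 1 seed form a family with largely shared targets. The miR-17-92 cluster promotes cell cycle entry and survival in dividing cells, lymphoid and erythroid progenitors among them, and its members and those of miR-106b-25 are common in blood cells and circulating RNA.

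The 7 members fall into 3 seed families, whose mature sequences are shown because the comparison within each family and within each cluster rests on them. They are the RefSeq sequences (assembly GRCr8), in lower case with the seed in capitals. All 7 deposited sequences, written with T, were equal to them. The first family has the seed AUUGCAC and holds a member from each cluster.
miR-25-3p: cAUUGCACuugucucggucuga
miR-92a-3p: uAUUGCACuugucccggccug
miR-363-3p: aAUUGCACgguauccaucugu
The second family has the seed AAAGUGC.
miR-17-5p: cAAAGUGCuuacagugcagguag
miR-20a-5p: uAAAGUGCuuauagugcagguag
miR-93-5p: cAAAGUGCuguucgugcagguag
The third family has the seed GUGCAAA, with 1 listed miRNA.
miR-19b-3p: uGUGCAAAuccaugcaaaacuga
Outside the members, miR-92b-3p was the 1 other listed miRNA with any of these seeds (AUUGCAC). Within the families, miR-17-5p and miR-20a-5p lay 2 edits apart, miR-17-5p and miR-93-5p 3 edits, and miR-25-3p and miR-92a-3p 4 edits. miR-363-3p lay 7 edits from miR-25-3p.

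In GRCr8, miR-25-3p lies at chr12:22156652-22156673 and miR-93-5p at chr12:22156894-22156916, both on the minus strand and, with Mir106b, within the span of Mcm7, a subunit of the replicative DNA helicase. The authors aligned to another assembly (mRatBN7.2), so these positions serve only to place the sequences. miR-20a-5p lies at chr15:98588318-98588340 on the plus strand in miR-17-92, and miR-363-3p at chrX:137342788-137342808 on the minus strand in miR-106a-363. miR-92a-3p is encoded in both of these clusters, at chr15:98588602-98588622 and at chrX:137342945-137342965. miR-17-5p and miR-19b-3p also have a copy in each. Reads of these 3 miRNAs cannot be assigned to 1 cluster, and how the authors counted reads with more than 1 genomic position is not given in the sources used here.

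**Figure D1:**
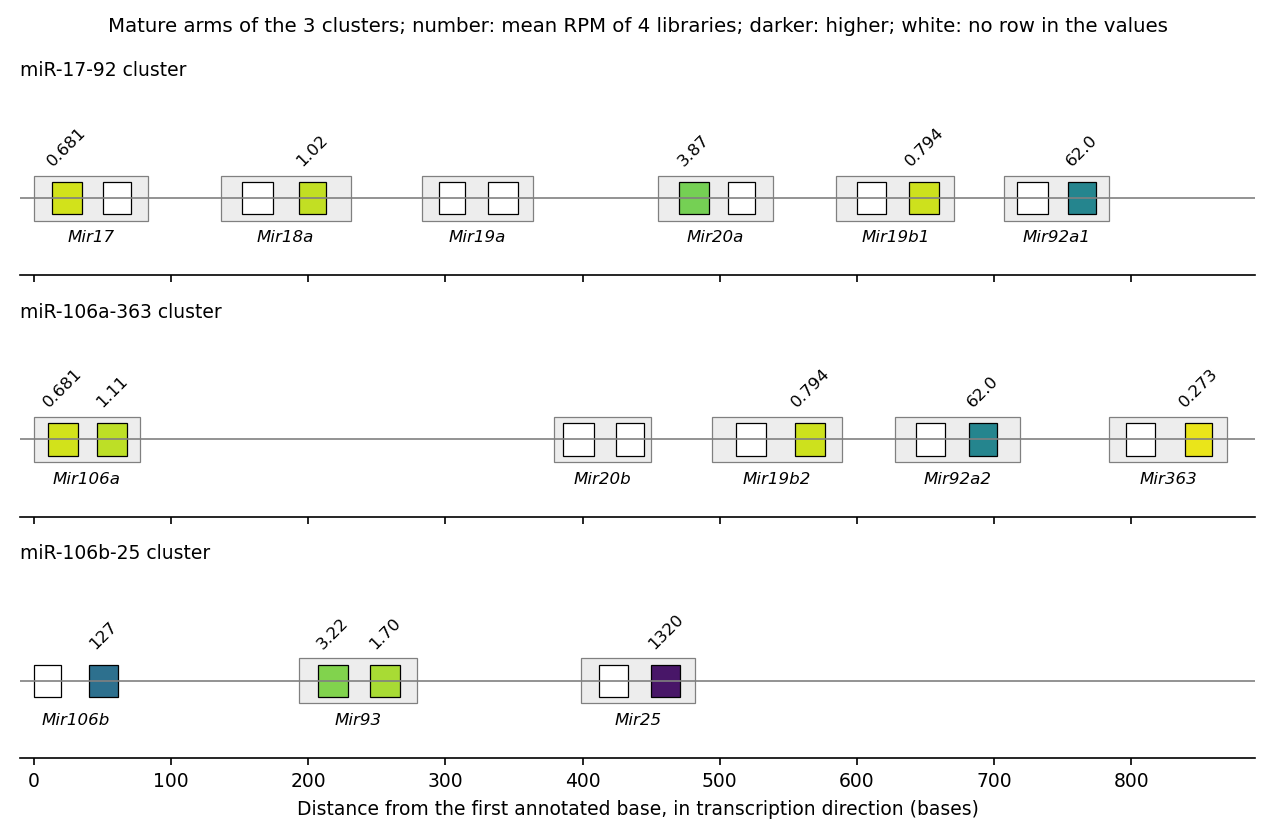
Mature arms (small boxes) and hairpins (grey) of the 3 clusters, by distance in bases from the first annotated base, with the mean RPM of the 4 libraries above each listed arm, darker for higher levels and white where no row was present (the hairpin of Mir106b is not drawn). The miR-106b-25 cluster holds the 2 highest arms, miR-25-3p at 1320 and miR-106b-3p at 127 RPM, and arms encoded in 2 clusters are drawn in both.

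Levels are in RPM, a miRNA's reads scaled to a fixed total of reads for its library, without scaling for length. From the smallest value of each library, taken as 1 read, the totals were 20780612 to 22140315 reads. Of these, 754341 and 814439 fell on listed miRNAs in the Sedentary-labelled libraries, and 693085 and 649210 in the Exercise-labelled ones. The Exercise-labelled libraries had 179 and 191 listed miRNAs above 0, and the Sedentary-labelled libraries had 151 and 152. Neither pair of replicates agreed within sampling noise, and n is the number of libraries. The reads are not known to be independent molecules, so the intervals and limits given here cover counting error only. Adapter ligation favours some sequences, and its part in differences of level between miRNAs was not tested.

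rno-miR-25-3p was the most abundant of the 7 members in every library. It held 1047 and 1303 RPM in the Sedentary-labelled libraries and 1584 and 1346 RPM in the Exercise-labelled libraries. Both Exercise-labelled libraries lay above both Sedentary-labelled ones, with 1 pair only narrowly apart. Among all listed miRNAs it ranked 9 in each Sedentary-labelled library and 7 and 8 in the Exercise-labelled ones. Its share of the listed miRNA reads was 3.06% (95% Wilson interval 3.02% to 3.10%) and 3.33% (3.29% to 3.36%) in the Sedentary-labelled libraries. In the Exercise-labelled libraries the share was 5.02% (4.97% to 5.07%) and 4.59% (4.54% to 4.64%). These libraries had fewer listed reads, so the shares differ more than the RPM values, whose ratio of group means was 1.25.

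rno-miR-92a-3p, which shares this seed and is encoded in both miR-17-92 and miR-106a-363, was next in level among the members. Its values were 79.7 and 65.3 RPM under the Sedentary label and 55.4 and 47.7 RPM under the Exercise label. On this scale both Exercise-labelled libraries lay below both Sedentary-labelled ones. As a share of listed miRNA reads it held 0.233% and 0.166% against 0.176% and 0.163%, and the groups overlapped. The remaining 5 members stayed below 10 RPM in every library, as did 60.1% of all listed miRNAs.

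By mean level the order was miR-25-3p, miR-92a-3p, miR-20a-5p, miR-93-5p, miR-19b-3p, miR-17-5p and miR-363-3p. The lowest library of miR-25-3p lay above the highest of miR-92a-3p, and the lowest of miR-92a-3p above the highest of miR-20a-5p. From miR-20a-5p on, the ranges of neighbours over the 4 libraries overlapped, so their order is not fixed beyond the spread.

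**Figure D2:**
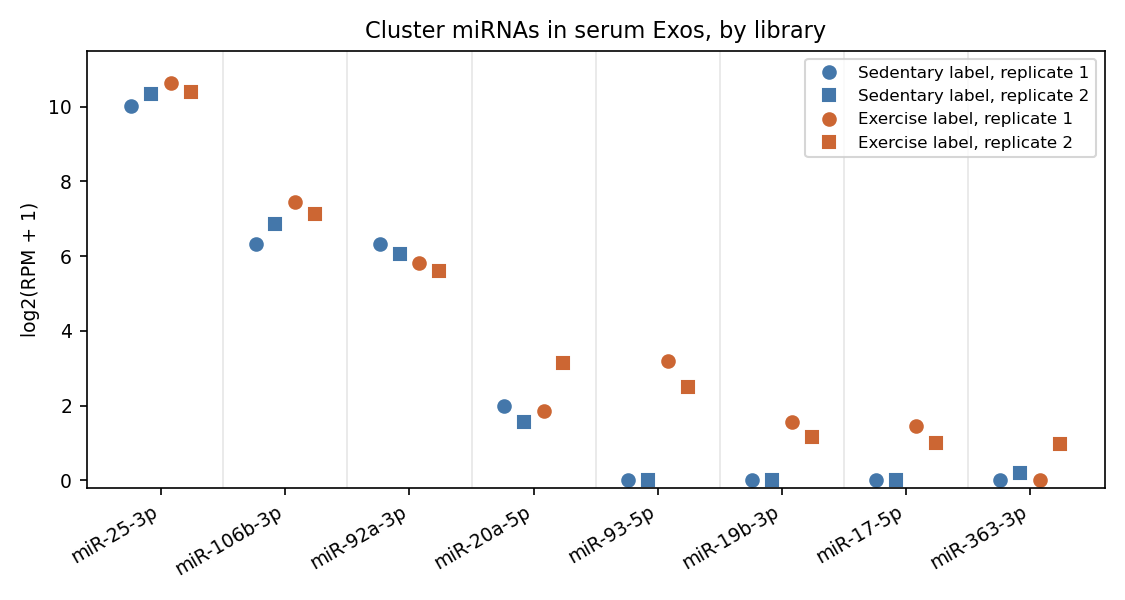
Level of the 7 members and of miR-106b-3p in each library, as log2(RPM + 1), with color for the treatment label and marker shape for the replicate. miR-25-3p sits far above the rest, and miR-93-5p, miR-19b-3p and miR-17-5p are at 0 in both Sedentary-labelled libraries.

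Within the AAAGUGC family, miR-93-5p and miR-17-5p had no read in either Sedentary-labelled library. rno-miR-93-5p, the 5p arm of the middle hairpin of miR-106b-25, held 8.24 and 4.65 RPM in the Exercise-labelled libraries, which is 181 reads (exact Poisson 95% interval 156 to 209) and 103 reads (84.1 to 125). The limit for 0 observed reads was taken as 3 reads, which is 0.136 and 0.144 RPM in the Sedentary-labelled libraries. Its Exercise-labelled mean was 45.9-fold the mean of these limits, which is not a lower bound. It leaves out counting error under the Exercise label and the spread between libraries. For scale, miR-7a-5p had 557 and 0 reads in the 2 Sedentary-labelled libraries. The study selected miR-93-5p from these same libraries, so its difference is not independent evidence, and the direction given in the study was not used here.

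miR-17-5p, which opens the miR-17-92 cluster, held 1.73 and 0.994 RPM in the Exercise-labelled libraries, from 38 reads (26.9 to 52.2) and 22 reads (13.8 to 33.3). Its mean there was 9.70-fold the mean of the same limits of 3 reads per library, again not a lower bound. miR-20a-5p, also encoded in miR-17-92 and with the same seed, overlapped between the groups. It held 3.00 and 1.97 RPM under the Sedentary label and 2.59 and 7.90 RPM under the Exercise label, where the second value rested on 175 reads (150 to 203).

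The summed level of the 3 AAAGUGC members was 3.00 and 1.97 RPM in the Sedentary-labelled libraries and 12.6 and 13.5 RPM in the Exercise-labelled ones. The ratio of the group means, 13.1 ± 0.701 against 2.49 ± 0.725 RPM (SD, n = 2 each), was 5.25, and the groups did not overlap (exact two-sided permutation test, p = 0.33, the smallest that 2 libraries against 2 can give). Part of this difference was built in, since miR-93-5p and miR-17-5p entered the sum through the Exercise-labelled libraries alone. miR-20a-5p, above 0 in all 4 libraries, overlapped between the groups. Of the 2 Exercise-labelled sums, the first came mostly from miR-93-5p and the second mostly from miR-20a-5p.

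miR-19b-3p, of the GUGCAAA family, had 0 reads in both Sedentary-labelled libraries and 43 (31.1 to 57.9) and 27 reads (17.8 to 39.3) in the Exercise-labelled ones, or 1.96 and 1.22 RPM. Its Exercise-labelled mean was 11.3-fold the mean of the limits of 3 reads per library, again not a lower bound. Being at 0 in both Sedentary-labelled and above 0 in both Exercise-labelled libraries was shared by 4.94% of the 243 listed miRNAs, and the opposite pattern by 0.823%. miR-363-3p, the last hairpin of miR-106a-363, had 0 and 3 reads under the Sedentary label and 0 and 21 reads (13.0 to 32.1) under the Exercise label, a single library above the limit, so no fold is given.

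Within the AUUGCAC family, the ratio of miR-25-3p to miR-92a-3p was taken inside each library, where scaling cancels. It was 13.1 and 20.0 in the Sedentary-labelled libraries, a mean of 16.6 ± 4.83 (SD, n = 2), and 28.6 and 28.2 in the Exercise-labelled libraries, a mean of 28.4 ± 0.270 (SD, n = 2). The groups did not overlap, which held for 11 of the 14 pairs of members compared, and the Exercise-labelled libraries lay close together. As log2(RPM + 1) of miR-92a-3p minus that of miR-25-3p, the difference between the groups was -0.80 (standard error 0.30), with an exact two-sided permutation p of 0.33, again the smallest possible, and 0.42 after Benjamini-Hochberg adjustment over the 14 pairs compared. Without replicate 1 of the Sedentary-labelled libraries the difference was -0.50, and without replicate 2 it was -1.10.

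Of the 14 pairs, 6 were within a seed family and 8 within a cluster only, and a second pair, miR-20a-5p with miR-92a-3p in miR-17-92, had both members above 0 in all libraries. Its log2 ratio was -4.33 and -4.48 under the Sedentary label and -3.97 and -2.45 under the Exercise label, a difference of 1.19 (standard error 0.76, exact permutation p = 0.33). The value of -2.45 carried the same 175 reads of miR-20a-5p. Without Exercise replicate 2 the difference was 0.43, and without Exercise replicate 1 it was 1.95. In the other 12 pairs at least 1 library held a 0, so the size of the ratio depends on the pseudocount.

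**Figure D3:**
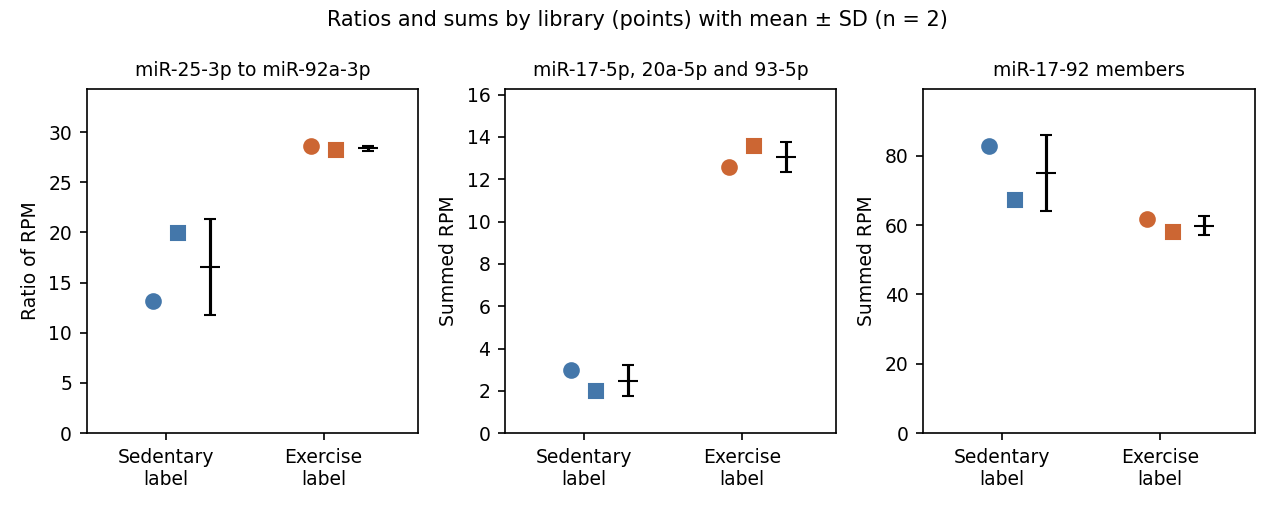
Ratio of miR-25-3p to miR-92a-3p, summed RPM of the 3 AAAGUGC members and summed RPM of the 4 members encoded in miR-17-92, per library (points) with mean ± SD (n = 2). The ratio and the AAAGUGC sum are higher, and the miR-17-92 sum in RPM lower, in both Exercise-labelled libraries. Part of the AAAGUGC difference is built in, since miR-93-5p and miR-17-5p are at 0 in both Sedentary-labelled libraries. As a share of listed miRNA reads the miR-17-92 sums overlap between the groups.

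Summed by cluster, the 4 members encoded in miR-17-92 held 82.7 and 67.2 RPM under the Sedentary label and 61.7 and 57.9 RPM under the Exercise label, most of it miR-92a-3p. The 2 members of miR-106b-25 held 1047 and 1303 RPM against 1592 and 1351 RPM, nearly all miR-25-3p. On the RPM scale the groups did not overlap in either sum, the first being lower and the second higher under the Exercise label (exact permutation p = 0.33 for each). Since 3 of the 4 also have a copy in miR-106a-363, the first sum gives no direction for 1 cluster, and the 4 members encoded in miR-106a-363 (these 3 and miR-363-3p) held 79.7 and 65.4 RPM against 59.1 and 50.9 RPM. As a share of listed miRNA reads, the sum of the members encoded in miR-17-92 was 0.241% and 0.172% against 0.196% and 0.197%, where the groups overlapped. All 7 members together held 1130 and 1371 RPM under the Sedentary label and 1654 and 1410 RPM under the Exercise label, a ratio of means of 1.23 (exact permutation p = 0.33). Without miR-25-3p the other 6 members summed to 82.7 and 67.4 against 69.9 and 63.5 RPM, where the groups overlapped.

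In the comparison over all miRNAs above 0 in at least 2 libraries, limma on log2(RPM + 1) called 7.87% of the 178 tested (5.06% higher and 2.81% lower under the Exercise label), with thresholds of 0.05 on the Benjamini-Hochberg adjusted p and 1 on the size of the log2 fold change. It called 0 of the 7 members. Without adjustment of p, 3 members passed both thresholds, miR-93-5p, miR-19b-3p and miR-17-5p, all higher under the Exercise label, against 21.9% of all tested in either direction and 15.2% in that direction. These 3 passed the filter on low values through the Exercise-labelled libraries alone, so a difference was built into their being tested. With pseudocount 10 their log2 fold changes were 0.71, 0.21 and 0.18, all below the fold threshold, and with pseudocount 0.1 that of miR-93-5p was 5.98. The groups did not overlap for 5 members, 4 higher and 1 lower under the Exercise label, against 52.2% of all 178 tested, of which 57 were higher and 36 lower.

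limma gave miR-93-5p a log2 fold change of 2.85 with a standard error of 0.74 and an adjusted p of 0.074. Without replicate 1 or without replicate 2 of the Sedentary-labelled libraries it was called, with adjusted p = 0.011 and 0.012, where the lone library was assumed to vary like the other group and limma called 30 and 39 of 168 miRNAs in all. It passed the filter through the Exercise-labelled libraries alone and was not tested without either of them, and its size depends on the pseudocount, since both Sedentary-labelled libraries were at 0. Its estimate for miR-25-3p was 0.32 ± 0.17 (standard error), with a limma adjusted p of 0.29, and that for miR-92a-3p was -0.48 ± 0.24, with a limma adjusted p of 0.25. With each library scaled to the sum of its listed miRNAs, miR-25-3p had 0.59 and an adjusted p of 0.025 from limma, still below the fold threshold, and miR-92a-3p had -0.21. With median-of-ratios scaling the values were 0.22 for miR-25-3p (limma adjusted p = 0.24) and -0.58 for miR-92a-3p. With 1 library left out, miR-25-3p ranged from 0.16 (limma adjusted p = 0.44, without Sedentary replicate 1) to 0.48 (limma adjusted p = 0.020, without Sedentary replicate 2). The adjusted p from limma was 0.13 for miR-19b-3p, 0.15 for miR-17-5p, 0.65 for miR-20a-5p and 0.62 for miR-363-3p. The median log2 fold change was 0.71 over the 7 members and 0.21 over all 178 tested. The first is the value of miR-20a-5p, which was 0.060 without Exercise replicate 2, and the 3 members at 0 in both Sedentary-labelled libraries could only be positive, so nothing is read from it.

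**Figure D4:**
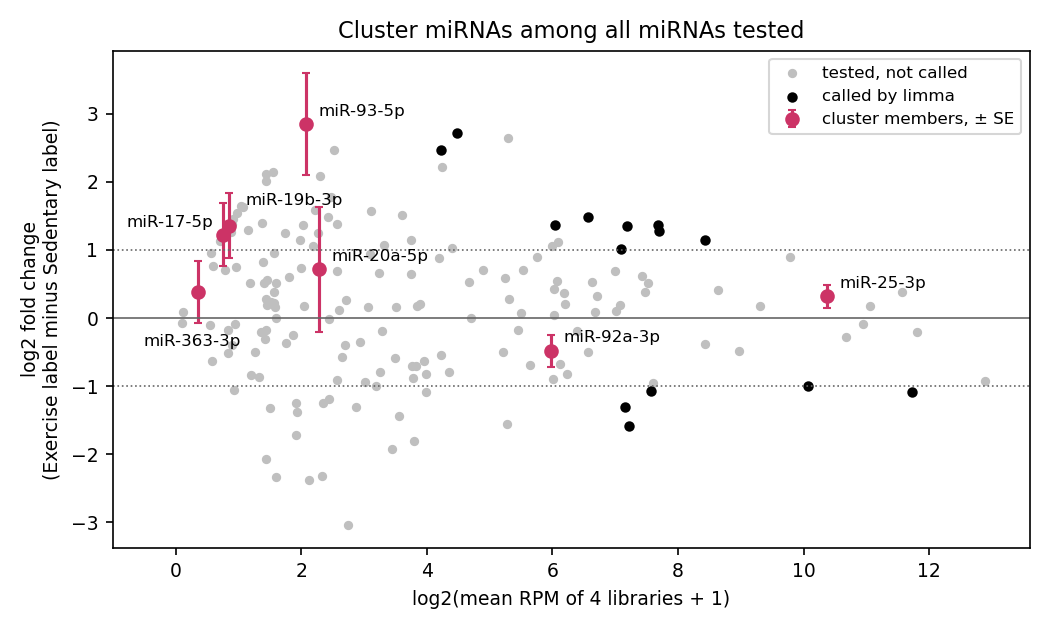
Log2 fold change on the log2(RPM + 1) scale (Exercise label minus Sedentary label) against mean level for the 178 miRNAs tested, with called miRNAs in black and the 7 members in red ± standard error. No member is among the 14 called, and dotted lines mark the fold threshold of 1.

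The other arms of the same hairpins, and relatives outside them, came from a list of 21 names, of which 5 were in the values. miR-106b-3p stood out by level: it held 79.0 and 116 RPM in the Sedentary-labelled libraries and 175 and 138 RPM in the Exercise-labelled ones, while its partner arm miR-106b-5p had no row. By mean level it was the second most abundant product of the 3 clusters, but in Sedentary replicate 1 miR-92a-3p lay above it (79.7 against 79.0 RPM). It is shown for its mean level, with bases 2 to 8 in capitals.
miR-106b-3p: cCGCACUGuggguacuugcugc
This arm lies at chr12:22157062-22157083 on the minus strand of GRCr8. limma estimated a log2 fold change of 0.70 ± 0.25 (standard error) with an adjusted p of 0.14, and the groups did not overlap. Inside each library, miR-25-3p was 13.3 and 11.3 times its level under the Sedentary label and 9.03 and 9.75 times under the Exercise label. In the Exercise-labelled libraries miR-106b-3p was 21.3 and 29.7 times the level of miR-93-5p, whose position lies between those of miR-106b-3p and miR-25-3p.

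Of the remaining 4 names, miR-93-3p, the partner arm of miR-93-5p, had 79 and 0 reads under the Sedentary label and 30 and 41 reads under the Exercise label. In replicate 1 of the Sedentary-labelled libraries the 3p arm was therefore present where the 5p arm had no read. miR-17-2-3p, the 3p arm of the miR-17-5p copy in miR-106a-363, had 0 reads in both Sedentary-labelled libraries and 69 and 29 reads in the Exercise-labelled ones. This is the same pattern as miR-17-5p. miR-18a-3p had 90 reads in replicate 1 of the Sedentary-labelled libraries and 0 in the other libraries. miR-92b-3p, the relative with the AUUGCAC seed, had 0 and 41 reads against 25 and 75. Of the 5 names, limma tested 4 and called 0, and miR-18a-3p, above 0 in 1 library, was not tested.

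The likeness of patterns was measured as the root mean square difference of centred log2(RPM + 1) over the 4 libraries, a description over few points. The closest to miR-25-3p were miR-1-3p (0.092), miR-148a-3p (0.11) and let-7f-5p (0.13). Those closest to miR-92a-3p were miR-10a-5p (0.16), miR-143-3p (0.16) and let-7d-5p (0.17). miR-17-5p and miR-19b-3p, with different seeds, were each other's closest (0.069), which follows in part from their shared 0 values in both Sedentary-labelled libraries. Both were followed by miR-30e-5p and miR-140-3p, a likeness that depends on the pseudocount of 1. With pseudocounts 10 and 0.1 the log2 fold change was 0.18 and 3.82 for miR-17-5p, and 0.21 and 4.04 for miR-19b-3p. For miR-93-5p the closest was miR-98-5p (0.27), and no other member was among its nearest 3. miR-20a-5p had miR-191b first (0.16), and miR-363-3p had miR-3553 (0.12).

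Markers of blood cells and liver, which can release RNA into serum, were read in the same libraries. In bulk RNA of this kind, fewer cells or vesicles of a type and less RNA in each cannot be told apart. The 5 red cell markers summed to 8768 and 11312 RPM under the Sedentary label and 5774 and 4806 RPM under the Exercise label, most of it miR-486, and limma called 0 of the 3 tested. Among these, miR-451-5p, a defining red cell miRNA, held 14.7 and 148 RPM against 54.0 and 70.4 RPM, so the Sedentary-labelled libraries stood furthest apart. miR-144-3p (0 and 0 against 40 and 0 reads) and miR-144-5p (0 and 0 against 0 and 60 reads) overlapped between the groups and were not tested. miR-16-5p held 0 and 1.97 RPM against 8.42 and 8.67 RPM, the other way from the sum, and the median log2 fold change of the 3 tested was 0.37. The 5 white cell markers summed to 80.3 and 107 RPM against 188 and 199 RPM, and limma called 1 of 5, miR-150-5p, as higher under the Exercise label, while miR-155-5p was at 0 under the Sedentary label. miR-146a-5p, at 35.2 and 49.8 against 34.0 and 57.4 RPM, overlapped between the groups.

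The 3 platelet markers were miR-126a-3p, miR-126a-5p and miR-223-3p. They summed to 61.4 and 68.4 RPM against 72.5 and 68.7 RPM, with 0 of 3 called. Most of the sum was miR-126a-3p, at 57.6 and 68.4 against 67.5 and 62.6 RPM, where the groups overlapped. miR-126a-5p was at 0 in both Sedentary-labelled libraries and held 2.41 and 4.47 RPM in the Exercise-labelled ones. miR-223-3p, at 3.77 and 0 against 2.64 and 1.67 RPM, overlapped. Of the 2 liver markers, which summed to 1462 and 1601 RPM against 810 and 821 RPM, limma called 1, miR-122-5p, as lower under the Exercise label. The other, miR-192-5p, held 68.5 and 132 RPM against 115 and 88.9 RPM, and the groups overlapped. The part of these cells in the results for the cluster miRNAs was not tested.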

How the data were processed

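The authors trimmed small RNA reads with cutadapt, aligned them to mRatBN7.2 (with Bowtie2 in the methods, Bowtie in the processing notes), counted them on miRBase miRNAs with featureCounts and deposited values named TPM. The deposited values are RPM: every value above 0 was a whole multiple (tolerance 0.01) of the smallest value of its library, taken as 1 read. Only 10 to 19 values per library reached at most 20 reads, so no count model was fitted. Members were 10 main arms looked up by name. Members, relatives, markers, nearest patterns and tests were chosen with earlier results of these data known. Groups follow the treatment labels. miRNAs above 0 in 2 or more libraries were fitted as log2(RPM + 1) with limma 3.58.1 (R 4.3.3). Its variance prior was allowed a trend with level, and p was adjusted by Benjamini-Hochberg. A check of the fit on simulated data placed differences only in miRNAs of higher level, so it does not cover the 5 members below 10 RPM. Ratios and sums used exact two-sided permutation tests in Python 3.11.15 (scipy 1.17.1), and the limit for a count of 0 was 3 reads. Alternatives changed the pseudocount, filter, scaling, variance prior and replicate block, or left out a library. Deviations from the group means in same-numbered libraries had a correlation of -0.15, which with 2 libraries per group cannot decide on pairing or a batch.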

Additional observations from a re-analysis of the deposited data

How the results depend on the processing

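With 2 libraries in each group, permutation tests cannot pass the threshold, and members below 10 RPM rest on at most 181 reads in a library. limma called 0 of the 7 members under the other pseudocounts, no filter, the other scalings, the single variance prior and both blocks, and 0 of the 2 tested with a mean of at least 10 RPM. With that mean filter it called 18 of all 82 miRNAs tested, and with pseudocounts 0.1 and 10 it called 12 and 10 of 178. With 1 library left out it called 0 to 1 (miR-93-5p) of the 3 to 7 tested, and miR-93-5p was not tested without either Exercise-labelled library. Over all tested miRNAs, the 14 calls were 3 without the filter on low values, 0 with a single variance prior (44 at an unadjusted p under 0.05 with the fold threshold kept) and 0 to 39 with 1 library left out. The split was 9 higher and 5 lower, against 5 and 9 with median-of-ratios scaling and 13 and 2 when scaled to the listed miRNAs, which moved the median log2 fold change of all tested from 0.21 to 0.44. The log2 difference of the summed members was 0.30, became 0.56 when scaled to the listed miRNAs and 0.19 with median-of-ratios scaling, and lay between 0.16 and 0.43 with 1 library left out. That of miR-92a-3p to miR-25-3p lay between -1.10 and -0.50 with 1 library left out.

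Of the 12 pairs with a 0 in some library, 3 changed sign. miR-25-3p to miR-363-3p went from -0.062 to 0.26 with pseudocount 10, to 0.15 when scaled to the listed miRNAs, and ranged from -0.66 to 0.54 with 1 library left out. miR-17-5p to miR-20a-5p went from 0.51 to -0.084 with pseudocount 10 and ranged from -0.37 to 1.39 with 1 library left out, the lowest without Exercise replicate 1. miR-19b-3p to miR-20a-5p went from 0.64 to -0.056 with pseudocount 10 and ranged from -0.22 to 1.504 with 1 library left out, the lowest again without Exercise replicate 1. The cause was not tested. The log2 fold changes of miR-25-3p, miR-92a-3p, miR-20a-5p and miR-363-3p kept their sign under each alternative computed for them, and that of the 3 members at 0 in both Sedentary-labelled libraries could not turn. Pairing by replicate number could not be decided with 2 libraries per group, and a replicate block as a term gave 18 calls over all miRNAs and 0 among members. Crossing the numbers, an alternative added after seeing the data, gave 18 as well. There the standard error of miR-25-3p was 0.092 and its limma adjusted p 0.059, against 0.17 and 0.29 without a block.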
